A study of Mus musculus with 5 samples.

Results

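The BCL2 family comprises the proteins that decide whether the outer mitochondrial membrane is opened during apoptosis. Of its genes, 10 were followed by name in the deposited expression table of 34240 features, and all 10 were found. They comprise 6 pro-survival genes (Mcl1, Bcl2, Bcl2l1, Bcl2l2, Bcl2a1a and Bcl2a1b), 2 effectors (Bax and Bak1) and 2 BH3-only genes (Pmaip1 and Bcl2l11). Leukaemic cells came from an acute myeloid leukaemia (AML) of BALB/c mice induced by CNTRL-FGFR1, a fusion of a centrosomal protein with a receptor tyrosine kinase, sorted as Mac+Gr1+B220+ cells (2 libraries, tissue given as bone marrow and spleen). Normal Gr1+Mac1+ myeloid cells sorted from the bone marrow of BALB/c mice gave 3 libraries. All mice were 10 to 12 months old. Spleen and the B220 sort occurred in the AML group alone, so tissue and sort cannot be told apart from leukaemia. Nothing in the labels ties a library to an animal of its own, so p-values measure the spread between these libraries, which may be technical.

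Levels are RPKM (reads scaled to exon length and library total), a unit inferred from the values, so genes can be compared per length. No read totals were given in the file. In normal library 1 steps between low values were whole reads most often at a trial depth of 33500000 reads, the best of those tried. There 67.2% of 134 values were whole, against 24.1% by chance at a single depth, an excess of 43 percentage points. Depths further away reached an excess of up to 29.5 points, and the other libraries were less distinct. Read numbers given below are therefore rough. S100a8 and S100a9 together took 20.8% and 30.1% of the RPKM total in AML libraries, against 28.2% to 37.0% in normal libraries. Markers of the sorted cells were present in both groups. The summed level of 8 neutrophil markers was 129295 and 213643 RPKM in AML libraries and 151738 to 254709 RPKM in normal libraries, most of it S100a8 and S100a9. Of these 8 markers, 5 were called lower and none higher (median log2 fold change -1.33), with 0 higher also at an unadjusted p under 0.05 (limma). Means of the lower markers were 566 RPKM in AML cells and 1309 RPKM in normal cells for Ly6g, and 36.9 RPKM in AML cells and 292 RPKM in normal cells for Cxcr2, the chemokine receptor of mature neutrophils. The granule protease genes Mmp8 and Mmp9 averaged 211 and 59.9 RPKM in AML cells, against 1447 and 558 RPKM in normal cells, and Ltf averaged 2147 RPKM in AML cells and 5597 RPKM in normal cells. The markers not called were Camp, S100a8 and S100a9, and their groups overlapped. Camp had 16453 and 19129 RPKM in AML libraries and 8770 to 18329 RPKM in normal libraries (log2 fold change 0.55). S100a8 and S100a9 had log2 fold changes of -0.33 and -0.19. The 5 granulocyte precursor markers summed to 10331 and 11330 RPKM in AML libraries, against 299 to 446 RPKM in normal libraries, and all 5 were called higher. The 7 monocyte and macrophage markers summed to 24.3 and 30.4 RPKM in AML libraries and 402 to 645 RPKM in normal libraries, with 6 called lower. The 8 T and NK cell markers summed to 342 and 338 RPKM in AML libraries and 42.6 to 50.01 RPKM in normal libraries. Of these, Cd3e and Cd3g were called higher and Cd3d lower, whereas Lck had 0.4 and 0.4 RPKM in AML libraries and 0.3 to 0.7 RPKM in normal libraries. The 7 B cell markers summed to 10.2 and 12.7 RPKM in AML libraries and 11.1 to 17.2 RPKM in normal libraries. Plasmacytoid dendritic cell markers summed to 29.0 and 40.8 RPKM in AML libraries, where Siglech and Ccr9 were listed at 0, and 43.2 to 62.1 RPKM in normal libraries. Normal library 3 stood apart from normal libraries 1 and 2, with 167 RPKM of erythroid markers against 2214 and 1450 RPKM and with 13.5 RPKM of eosinophil and basophil markers against 734 and 761 RPKM. AML libraries held 148 and 170 RPKM of erythroid and 113 and 233 RPKM of eosinophil and basophil markers.

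Pro-survival proteins hold the effectors BAX and BAK in check by binding a short helix called the BH3 domain. BH3-only proteins such as BIM (from Bcl2l11) and NOXA (from Pmaip1) fill the binding groove of the pro-survival proteins, or engage the effectors directly, and so release pore formation and cytochrome c. MCL1 is a short-lived protein on which granulocytes and their precursors depend in mice. Among the 10 coding sequences of GENCODE M1 (mm9), 7 encode the core of the BH3 domain searched here as leucine, any 3 residues, glycine and aspartate. It was found in Mcl1, Bcl2, Bcl2l1, Bax, Bak1, Pmaip1 and Bcl2l11, and not in these letters in Bcl2l2, Bcl2a1a or Bcl2a1b. The run asparagine, tryptophan, glycine and arginine, which lies in the BH1 region of the groove, was encoded by 7 members, namely the 6 pro-survival genes and Bax. The codons of the BH3 core are given in capitals with 4 codons on either side, because the BH3 helix of death members is the part that pro-survival proteins bind.
Mcl1: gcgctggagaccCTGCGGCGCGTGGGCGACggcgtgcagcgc
Bcl2: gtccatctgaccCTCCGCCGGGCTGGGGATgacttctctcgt
Bcl2l1: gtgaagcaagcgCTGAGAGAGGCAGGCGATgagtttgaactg
Bax: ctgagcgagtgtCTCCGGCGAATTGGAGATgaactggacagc
Bak1: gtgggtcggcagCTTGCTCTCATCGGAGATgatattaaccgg
Bcl2l11: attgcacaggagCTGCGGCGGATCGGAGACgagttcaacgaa

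Of the 10 members, 9 reached 1 RPKM in at least 2 libraries and were tested. Bcl2l2, Bcl2a1a and Bax were called higher in AML cells, and Mcl1 and Pmaip1 were called lower (limma on log2(RPKM + 1), Benjamini-Hochberg adjusted p under 0.05). Over all 10166 tested genes 19.3% were called higher and 11.8% lower, which for 9 genes corresponds to 1.73 higher and 1.06 lower. Counted by groups that do not overlap, the same 3 members lay above and the same 2 below in every AML library. Of all called genes 62.1% were higher, against 47.7% with library totals made equal without S100a8 and S100a9. Across all tested genes the shares of separated groups were 34.8% and 22.1%, corresponding to 3.13 and 1.99 of 9 genes, so the members' count of separated groups was close to that of any 9 tested genes. The median log2 fold change was 0.27 over the 9 members and 0.12 over all tested genes. Bcl2a1a passed the filter through the AML libraries alone and Pmaip1 through the normal libraries alone, so both had to differ between the groups and their calls add no support to these counts.

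**Figure D1:**
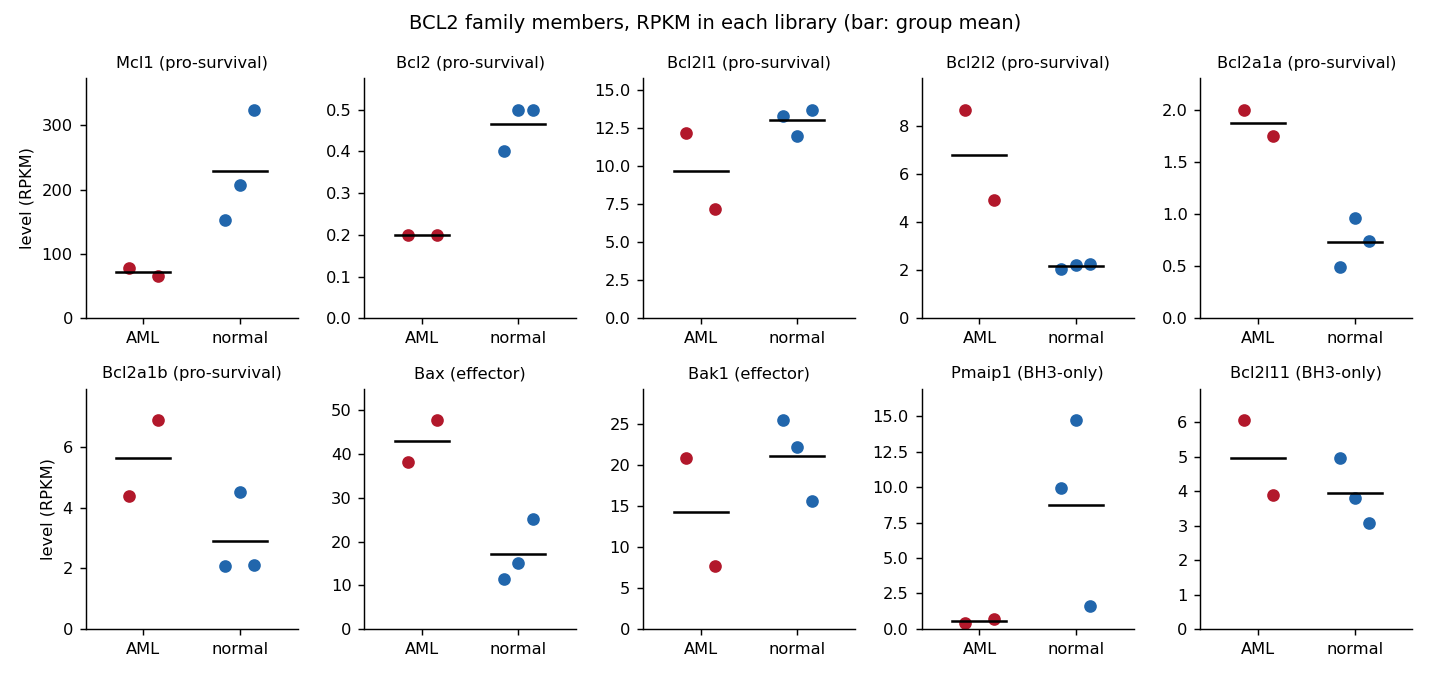
RPKM of the 10 members in each library, with AML libraries in red on the left and normal libraries in blue on the right of each panel; the bar marks the group mean and each panel has its own axis from 0. Mcl1, Bcl2 and Pmaip1 lie lower in both AML libraries, Bcl2l2, Bcl2a1a and Bax lie higher, and the groups overlap for the other members.

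Mcl1, the pro-survival gene with the highest level in every library, was lower in AML cells. Its level was 78.4 and 65.9 RPKM in AML libraries, against 153.3, 207.9 and 324.5 RPKM in normal libraries 1, 2 and 3. Both AML libraries lay under the lowest normal library, and the normal libraries themselves spanned more than the gap between the groups. The means were 72.15 ± 8.84 RPKM in AML cells and 229 ± 87.5 RPKM in normal cells (SD, n = 2 and n = 3), a 3.17-fold lower level in AML cells. On the log2(RPKM + 1) scale the fold change was -1.59 (SE 0.35, 95% interval -2.42 to -0.76; limma, Benjamini-Hochberg adjusted p = 0.016). The call was lost without AML library 1 (-1.71, adjusted p = 0.069), AML library 2 (-1.46, adjusted p = 0.12) or normal library 2 (-1.62, adjusted p = 0.055). In sorted bulk populations, fewer cells of a type and less RNA per cell cannot be told apart. The monocyte marker sum and 5 of the 8 neutrophil markers, given above, were also lower in AML cells. The granulocyte precursor marker sum was higher. The part of these cell types in the Mcl1 difference was not tested. Mcl1 lies on chromosome 3 (95462643 to 95467099, mm9, plus strand, ENSMUSG00000038612), with no exon shared with another annotated gene.

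The tested genes with the profile nearest to that of Mcl1 over the 5 libraries were Styk1, Plaur and Picalm. Likeness was measured as the root mean square difference of log2(RPKM + 1) after centring each gene on its mean, which was 0.10 for Styk1, 0.10 for Plaur and 0.11 for Picalm. Styk1 was a low gene that passed the filter through the normal libraries alone. Its level was 0.2 and 0.2 RPKM in AML libraries and 1.6, 2.1 and 4.1 RPKM in normal libraries, where the added 1 RPKM weighs on the profile. Plaur, the urokinase receptor gene, stood at 58.2 and 51.9 RPKM in AML libraries and at 116.3, 149.7 and 207.7 RPKM in normal libraries. Picalm, a clathrin assembly factor, had 43.2 and 35.1 RPKM in AML libraries and 92.8, 104.2 and 157.5 RPKM in normal libraries.

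Bcl2, the founding pro-survival gene of the family, was barely transcribed in either group. It was listed at 0.2 and 0.2 RPKM in AML libraries, against 0.4, 0.5 and 0.5 RPKM in normal libraries. The groups did not overlap, but the values were deposited with 1 decimal and all lay under the filter. At the trial depth given above, 0.4 RPKM in normal library 1 came to about 96 reads over 7191 exon bases. With no filter the fold change was -0.29 on the log2(RPKM + 1) scale (SE 0.09, limma, Benjamini-Hochberg adjusted p = 0.099), which did not pass. Part of the gene (chromosome 1, 108434755 to 108610851, minus strand) shares 558 exon bases with D630008O14Rik on the other strand.

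Bcl2l1, which encodes BCL-XL, a survival factor of late erythroid cells and platelets, had 12.2 and 7.2 RPKM in AML libraries and 13.3, 12.0 and 13.7 RPKM in normal libraries. The groups overlapped, with AML library 2 under all others. Its log2 fold change of -0.43 (SE 0.27, 95% interval -1.06 to 0.20) gave no call (limma, Benjamini-Hochberg adjusted p = 0.26).

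Bcl2l2, the gene of BCL-W, was higher in AML cells. It stood at 8.68 and 4.93 RPKM in AML libraries, against 2.06, 2.20 and 2.24 RPKM in normal libraries. The normal libraries were nearly equal, whereas the AML libraries differed by more than the whole normal range. The means were 6.81 ± 2.65 RPKM in AML cells and 2.17 ± 0.0945 RPKM in normal cells (SD), a ratio of 3.14 and a log2 fold change of 1.26 (SE 0.26; limma, Benjamini-Hochberg adjusted p = 0.013). The call was lost without AML library 1 (0.91, adjusted p = 0.070) or normal library 2 (1.27, adjusted p = 0.052). Bcl2l2 (chromosome 14, 55502214 to 55507071, plus strand) shares 594 exon bases with the same-strand model Gm20521, which has no row of its own in the deposited data. How reads of the shared bases were counted is unstated. Pabpn1, a gene joined to Bcl2l2 in read-through transcripts, had 77.1 and 113.8 RPKM in AML libraries and 40.7, 53.3 and 92.9 RPKM in normal libraries. Pabpn1 was not called (log2 fold change 0.67, SE 0.39, limma, Benjamini-Hochberg adjusted p = 0.23). Any part of read-through in the Bcl2l2 level was not tested.

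Bcl2a1a and Bcl2a1b, mouse copies of the BFL1/A1 survival gene that is induced by NF-kappaB and used by neutrophils, had low levels with the higher mean in AML cells. Their transcripts of 816 and 817 bases differ by 15 mismatches and 1 gap base, and 41.1% of all 50-base windows of the Bcl2a1a transcript occur unchanged in that of Bcl2a1b. A further copy, Bcl2a1d, is closer to each. In its transcript 67.5% of the Bcl2a1a windows and 57.4% of the Bcl2a1b windows occur unchanged. Reads from such windows cannot be assigned to 1 copy, so the split between the copies is uncertain. The first 60 coding bases, printed to show letters that tell Bcl2a1a from Bcl2a1b, hold 5 of the 11 coding differences of this pair (GENCODE M1, differing bases in capitals).
Bcl2a1a: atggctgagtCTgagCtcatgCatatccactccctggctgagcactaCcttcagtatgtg
Bcl2a1b: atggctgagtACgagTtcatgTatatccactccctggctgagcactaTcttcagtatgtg

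Bcl2a1a had 2.00 and 1.75 RPKM in AML libraries, against 0.49, 0.96 and 0.74 RPKM in normal libraries, where 0.49 RPKM came to about 13 reads. Every AML library lay above every normal library. The ratio of means was 2.57 and the log2 fold change 0.74 (SE 0.20; limma, Benjamini-Hochberg adjusted p = 0.030), or 1.29 with a pseudocount of 0.1. Its call was lost without normal library 1 (0.64, adjusted p = 0.098) or normal library 2 (0.83, adjusted p = 0.057). It was also lost with library totals made equal without S100a8 and S100a9 (0.60, adjusted p = 0.073). Without either AML library Bcl2a1a missed the filter and was not tested. Bcl2a1b had 4.38 and 6.89 RPKM in AML libraries and 2.08, 4.54 and 2.12 RPKM in normal libraries, with AML library 1 just under normal library 2. For Bcl2a1b the log2 fold change was 0.79 (SE 0.34, 95% interval -0.0028 to 1.59) and no call was made (adjusted p = 0.11). The copy Bcl2a1d stayed at or under 0.5 RPKM, and Bcl2a1c was listed at 0 in all 5 libraries. Summing Bcl2a1a, Bcl2a1b and Bcl2a1d, an alternative chosen after seeing the data, gave 6.38 and 8.74 RPKM in AML libraries and 3.07, 5.60 and 2.86 RPKM in normal libraries. The sum was higher in both AML libraries than in any normal library, yet no call was made at a log2 fold change of 0.85 (SE 0.31; limma, Benjamini-Hochberg adjusted p = 0.074). Bcl2a1b (chromosome 9, 89094047 to 89102665) also shares 401 exon bases with same-strand Mthfs, whose level was 9.70 and 12.29 RPKM in AML libraries and 9.46 to 10.07 RPKM in normal libraries.

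Mcl1 supplied most pro-survival RPKM in every library, and a smaller share of it in AML cells. Its share was 74.1% and 75.9% in AML libraries, against 89.3%, 91.1% and 94.4% in normal libraries, with no overlap. The remaining 5 pro-survival members together had 27.5 and 21.0 RPKM in AML libraries and 18.3 to 20.2 RPKM in normal libraries, so the whole pro-survival sum, 105.9 and 86.9 RPKM in AML libraries against 171.6 to 343.8 RPKM in normal libraries, followed Mcl1. Bcl2l1 made up 11.5% and 8.29% of the sum in AML libraries and 3.98% to 7.75% in normal libraries. Bcl2l2 made up 8.20% and 5.68% in AML libraries, against 0.652% to 1.20% in normal libraries. These shares do not change when all values of a library are multiplied by a constant factor. Quantile normalization can change them, and the shares were not computed under it. They describe RNA and carry no test, since they are built from the members.

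**Figure D2:**
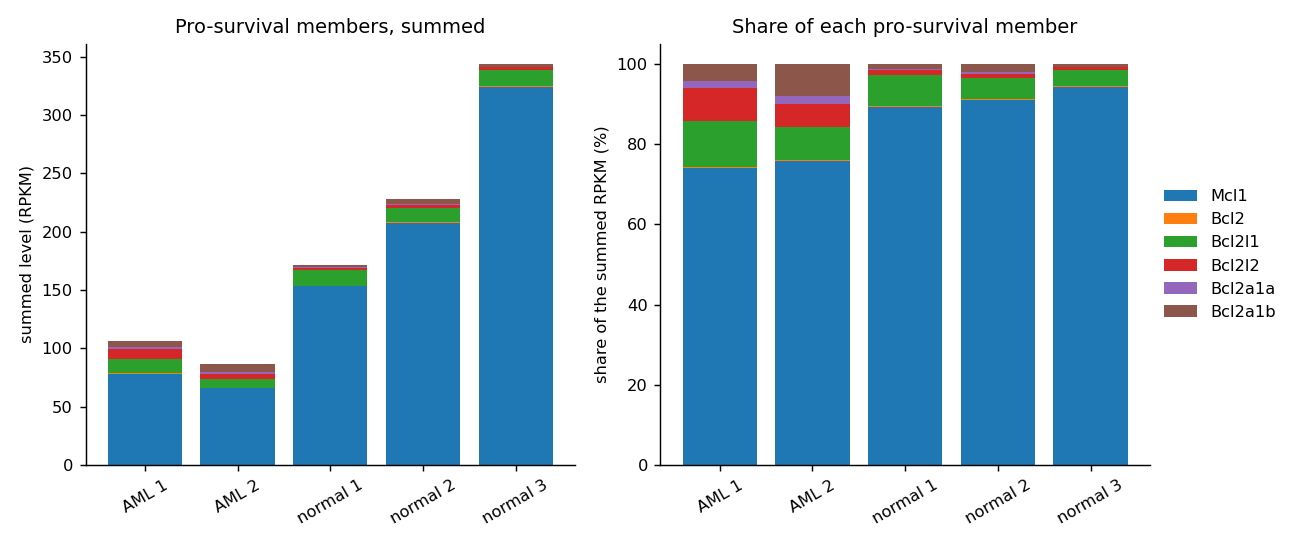
Stacked RPKM of the 6 pro-survival members in each library (left) and the share of each member in that sum in percent (right), with AML libraries before normal libraries. Mcl1 fills 74.1% and 75.9% of the AML columns and 89.3% to 94.4% of the normal columns.

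Bax, an effector that forms pores in the outer mitochondrial membrane once activated, was higher in AML cells. Its level was 38.10 and 47.72 RPKM in AML libraries, against 11.50, 14.99 and 25.15 RPKM in normal libraries. All AML values lay above all normal values, and normal library 3 was the nearest. The means were 42.9 ± 6.80 RPKM in AML cells and 17.2 ± 7.09 RPKM in normal cells (SD), a ratio of 2.49. The log2 fold change was 1.33 (SE 0.34, 95% interval 0.51 to 2.15; limma, Benjamini-Hochberg adjusted p = 0.027). Without AML library 1 (1.49, adjusted p = 0.084), AML library 2 (1.17, adjusted p = 0.18), normal library 1 (1.09, adjusted p = 0.069) or normal library 2 (1.27, adjusted p = 0.092) the call was lost. It was also lost when no gene was filtered (adjusted p = 0.062). Bax lies on chromosome 7 (52717065 to 52722268, mm9, minus strand) with no shared exon.

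Bak1, the second effector, had 20.8 and 7.70 RPKM in AML libraries and 25.4, 22.1 and 15.6 RPKM in normal libraries. AML library 1 lay within the normal range and AML library 2 under it. Bak1 was not called at a log2 fold change of -0.65 (SE 0.42, 95% interval -1.64 to 0.34; limma, Benjamini-Hochberg adjusted p = 0.27), and without AML library 2 it was 0.011. Its exons share 357 bases with Ggnbp1 on the opposite strand, and Ggnbp1 had 3.39 and 7.90 RPKM in AML libraries and 1 to 3.15 RPKM in normal libraries. Bax made up 64.7% and 86.1% of the effector sum in AML libraries and 31.2%, 40.4% and 61.7% in normal libraries. The effector sum was 58.9 and 55.4 RPKM in AML libraries, against 36.9, 37.1 and 40.8 RPKM in normal libraries.

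Set against each other, Mcl1 and Bax had a level ratio of 2.06 and 1.38 in AML libraries, against 13.3, 13.9 and 12.9 in normal libraries. Among normal libraries the ratio was nearly constant, although both genes were lowest in normal library 1 and highest in normal library 3. The pro-survival sum was 1.80 and 1.57 times the effector sum in AML libraries, and 4.65, 6.15 and 8.44 times in normal libraries. Mcl1 lay lower and Bax higher in both AML libraries without overlap, so their ratio had to separate the groups and adds no support to either call. The pro-survival sum followed Mcl1, as given above, so the ratio of sums is no separate evidence. Both ratios compare RNA within a library and say nothing of protein.

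The promoters of Mcl1 and Bax are shown because these are the most abundant member called in each direction. They are the 250 bases before the RefSeq start (GRCm38.p6; chr3:95658471-95658720, plus strand, and chr7:45466899-45467148, minus strand), written 5′ to 3′. Capitals mark motifs searched on both strands: the GC box (GGGCGG), the CCAAT box (CCAAT), the MYC-type E-box (CACGTG), a STAT site (TTCNNNGAA) and the CRE (TGACGTCA).
Mcl1: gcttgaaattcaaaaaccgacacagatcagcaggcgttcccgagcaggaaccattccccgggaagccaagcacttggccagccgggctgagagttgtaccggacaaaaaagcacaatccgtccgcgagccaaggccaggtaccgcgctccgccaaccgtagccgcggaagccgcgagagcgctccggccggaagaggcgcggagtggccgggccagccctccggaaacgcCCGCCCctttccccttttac
Bax: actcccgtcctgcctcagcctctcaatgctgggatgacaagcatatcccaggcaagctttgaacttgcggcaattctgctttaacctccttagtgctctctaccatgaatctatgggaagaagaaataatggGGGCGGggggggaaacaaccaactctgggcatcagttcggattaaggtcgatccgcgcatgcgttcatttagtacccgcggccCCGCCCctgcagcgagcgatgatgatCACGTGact

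The Mcl1 window held 1 GC box, and the Bax window held 2 GC boxes and 1 E-box. Over all 32851 RefSeq windows of this length, 32.7% held a GC box, 33.8% a CCAAT box, 6.02% the E-box, 7.02% the STAT site and 1.55% the CRE. Windows were found for 9 members. Of their 12 windows that of Bax was the only one with an E-box, and none held the STAT site or the CRE in these letters. Such matches are a description of the sequence, not of binding.

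Pmaip1, which encodes NOXA, a BH3-only protein that binds MCL1 and A1, was lower in AML cells, and reached 1 RPKM in the normal libraries alone. It had 0.4 and 0.7 RPKM in AML libraries, against 9.9, 14.7 and 1.6 RPKM in normal libraries 1, 2 and 3. The groups did not overlap, but normal library 3 was far nearer to the AML libraries than to the other normal libraries. The means were 0.55 ± 0.212 RPKM in AML cells and 8.73 ± 6.63 RPKM in normal cells (SD), a 15.9-fold lower level in AML cells. On the log2(RPKM + 1) scale the fold change was -2.31 (SE 0.70, 95% interval -3.97 to -0.64; limma, Benjamini-Hochberg adjusted p = 0.046). The call was lost without AML library 1 (-2.17, adjusted p = 0.17), AML library 2 (-2.45, adjusted p = 0.19), normal library 1 (-2.05, adjusted p = 0.098) or normal library 2 (-1.79, adjusted p = 0.10). Without normal library 3 the fold change was -3.08 (adjusted p = 8.0e-05). It was also lost with no filter (adjusted p = 0.11) and with equal totals without S100a8 and S100a9 (adjusted p = 0.057). Erythroid and eosinophil marker sums, given above, were low in the same 3 libraries as Pmaip1, and their part in this difference was not tested. Pmaip1 lies on chromosome 18 (66618258 to 66625204, mm9) with no shared exon.

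Bcl2l11, the gene of BIM, which binds all pro-survival proteins and limits the lifespan of granulocytes, did not differ detectably. It had 6.06 and 3.90 RPKM in AML libraries and 4.97, 3.81 and 3.08 RPKM in normal libraries, and the groups overlapped. Its log2 fold change was 0.27 (SE 0.27, 95% interval -0.38 to 0.91; limma, Benjamini-Hochberg adjusted p = 0.48). Bcl2l11 made up 93.8% and 84.8% of the sum of both BH3-only members in AML libraries, against 33.4%, 20.6% and 65.8% in normal libraries. As Bcl2l11 itself overlapped between the groups, this share followed Pmaip1. The sum leaves out other BH3-only genes, among them Bid. Bid alone had 21.3 and 17.4 RPKM in AML libraries and 25.4 to 30.3 RPKM in normal libraries, above Bcl2l11 in each.

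Ordered by level, AML cells had Mcl1 first, then Bax, Bak1, Bcl2l1, Bcl2l2, Bcl2a1b, Bcl2l11, Bcl2a1a, Pmaip1 and Bcl2. Ranges over the AML libraries overlapped between neighbours from Bak1 to Bcl2l11 and between no other neighbours. In normal cells Mcl1 was followed by Bak1, Bax, Bcl2l1, Pmaip1, Bcl2l11, Bcl2a1b, Bcl2l2, Bcl2a1a and Bcl2. There the ranges of neighbours overlapped from Bak1 to Bcl2l2, and the lowest Bcl2a1a value, 0.49 RPKM, lay within the Bcl2 range of 0.4 to 0.5 RPKM.

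Other genes of the family that reached the filter were not called. Of 14 further family genes 7 were tested, none was called in either direction (limma), 0 had an unadjusted p under 0.05 (26.5% higher and 17.4% lower over all tested genes), and their median log2 fold change was 0.38, against 0.12 over all tested genes. Bid, the gene of a BH3-only protein activated by caspase cleavage, had 21.3 and 17.4 RPKM in AML libraries, against 26.8, 30.3 and 25.4 RPKM in normal libraries (log2 fold change -0.49, adjusted p = 0.14). It shares 628 exon bases with Bcl2l13 on the opposite strand. Bbc3, the gene of PUMA, had 2.15 and 2.09 RPKM in AML libraries, against 1.28, 1.47 and 1.44 RPKM in normal libraries (0.38, adjusted p = 0.15). The groups did not overlap for either gene. Bmf, a BH3-only gene, had 3.48 and 2.37 RPKM in AML libraries, against 2.31, 1.85 and 1.31 RPKM in normal libraries (0.48, adjusted p = 0.18), narrowly without overlap. Bcl2l12 had 4.39 and 3.83 RPKM in AML libraries, against 2.71, 2.67 and 3.31 RPKM in normal libraries (0.39, adjusted p = 0.19), again without overlap. Over all tested genes the groups were separated with AML higher in 34.8% and with AML lower in 22.1%. Bad, a BH3-only protein regulated by phosphorylation, and Bcl2l13 had log2 fold changes of 0.05 (adjusted p = 0.87) and 0.04 (adjusted p = 0.94). Bcl2l15 stood at 3.25 and 6.34 RPKM in AML libraries and 0.90, 0.95 and 4.90 RPKM in normal libraries. Its log2 fold change was 0.998 (adjusted p = 0.19), and 1.54 without normal library 3 (adjusted p = 0.0030). Bcl2l14, under the filter, had 0.18 and 0.14 RPKM in AML libraries, against 0.04, 0.05 and 0.02 RPKM in normal libraries. With no filter it was called higher (0.16 on the log2(RPKM + 1) scale, adjusted p = 0.024).

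**Figure D3:**
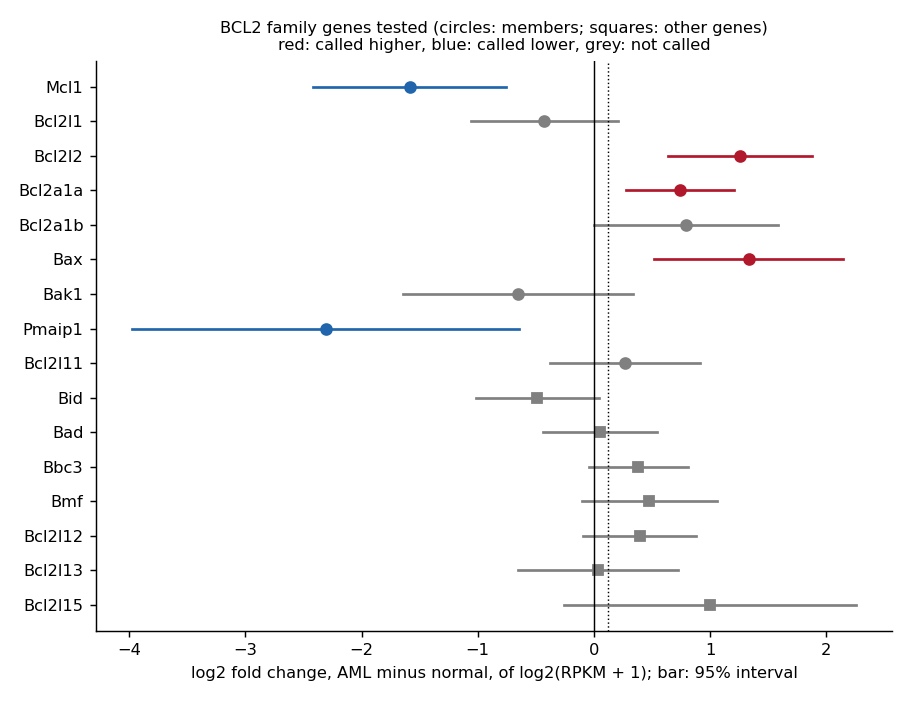
Log2 fold change (AML minus normal, log2(RPKM + 1) scale) with its 95% interval for the 9 tested members (circles) and 7 other family genes (squares); red and blue mark genes called higher and lower, and the dotted line is the median of all tested genes, 0.12. Called genes are Mcl1, Bcl2l2, Bcl2a1a, Bax and Pmaip1, at -1.59, 1.26, 0.74, 1.33 and -2.31.

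Downstream of the membrane, Htra2 and Aifm1 were called higher among 10 tested genes of the apoptosome and caspase list, and none was called lower (list median 0.20). The share called higher over all tested genes gives 1.93 of 10, so this count was close to the background. At an unadjusted p under 0.05 there were 3 higher and 2 lower (limma), against 2.65 and 1.74 at the shares over all tested genes. Htra2, a mitochondrial protease that can bind inhibitors of apoptosis once released, had 55.9 and 62.2 RPKM in AML libraries, against 12.3, 14.1 and 17.5 RPKM in normal libraries. Its log2 fold change was 1.95 (SE 0.24; limma, Benjamini-Hochberg adjusted p = 0.0019), and it passed in all 14 alternatives. Its exons share 998 bases with Loxl3 and Aup1 on the opposite strand. Aifm1, a mitochondrial flavoprotein, had 15.4 and 15.8 RPKM in AML libraries, against 8.51, 8.57 and 8.04 RPKM in normal libraries (0.83, SE 0.20, adjusted p = 0.023). The call of Aifm1 was lost without any one library but normal library 3 (adjusted p up to 0.13) and with equal totals without S100a8 and S100a9 (0.59, adjusted p = 0.087).

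Among genes listed as inhibitors of apoptosis, some of which bind caspases, Xiap and Naip6 were lower in AML cells. Of 8 tested genes Xiap and Naip6 were called lower and none higher, with a list median of -0.45, where the shares over all tested genes give 0.941 lower and 1.54 higher. At an unadjusted p under 0.05 there were 3 lower and 0 higher (limma), against 1.39 and 2.12 at the shares over all tested genes. Xiap, a direct caspase inhibitor, had 13.6 and 5.90 RPKM in AML libraries, against 30.8, 28 and 18.2 RPKM in normal libraries. The log2 fold change was -1.38 (SE 0.38; limma, Benjamini-Hochberg adjusted p = 0.035), and the call was lost without AML library 2 (-0.84, adjusted p = 0.23), normal library 1 (-1.23, adjusted p = 0.089) or normal library 2 (-1.30, adjusted p = 0.11). It was also lost with no filter (adjusted p = 0.078) and without both normal libraries 1 and 2 (adjusted p = 0.17). Naip6, one of several near-identical Naip copies whose reads can be split, had 1.2 and 1.0 RPKM in AML libraries, against 2.9, 2.8 and 3.6 RPKM in normal libraries (-0.96, SE 0.20, adjusted p = 0.013). That call was lost without AML library 1 (-1.03, adjusted p = 0.062) or AML library 2 (-0.89, adjusted p = 0.10), and without both normal libraries 1 and 2 (adjusted p = 0.053).

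The outer membrane partners, the death receptor pathway and the genes of MCL1 turnover held no called gene among 8, 8 and 6 tested (limma; list medians 0.02, -0.12 and -0.10). At an unadjusted p under 0.05 there were 2 higher genes among outer membrane partners, 1 higher in the death receptor pathway and 1 lower in MCL1 turnover, against 2.12, 2.12 and 1.04 at the shares over all tested genes. Without normal library 3 outer membrane partners and the death receptor pathway held 2 higher genes each and MCL1 turnover 2 lower genes. Over all 10110 genes tested in that setting, 2757 were called higher and 2142 lower. MCL1 turnover also held 1 lower gene under upper quartile scaling and 1 under quantile normalization. Vdac2, a membrane channel that holds BAK, had 157.3 and 127.1 RPKM in AML libraries, against 82.5, 98.1 and 100.4 RPKM in normal libraries (log2 fold change 0.59, adjusted p = 0.10). Tnfrsf1a, a tumour necrosis factor receptor, had a log2 fold change of -0.17 (adjusted p = 0.62), and Gsk3a, a kinase that marks MCL1 for degradation, one of -0.12 (adjusted p = 0.74). Gsk3b, the lower gene of MCL1 turnover at an unadjusted p under 0.05, had 9.5 and 6.7 RPKM in AML libraries. It had 19.9, 16.3 and 11.1 RPKM in normal libraries, without overlap, and was not called (log2 fold change -0.86, limma, Benjamini-Hochberg adjusted p = 0.069). Of 10 transcription factors known to act on family genes Myc, E2f1 and Trp53 were called higher and none lower (list median 0.04), where the share called higher over all tested genes gives 1.93 of 10. At an unadjusted p under 0.05 there were again 3 higher and 2 lower (limma), against 2.65 and 1.74 at the shares over all tested genes. The 2 lower genes, Foxo3 and Stat3, did not overlap between the groups and were not called. Foxo3 had 4.2 and 1.9 RPKM in AML libraries, against 15.5, 13.4 and 4.8 RPKM in normal libraries (log2 fold change -1.52, limma, Benjamini-Hochberg adjusted p = 0.056). Stat3 had a log2 fold change of -0.79 (adjusted p = 0.079). Trp53, the gene of p53, of which Bax, Pmaip1 and Bbc3 are classical targets, had 37.1 and 35.6 RPKM in AML libraries, against 18.1, 15.7 and 13.3 RPKM in normal libraries. Its log2 fold change was 1.17 (SE 0.23; limma, Benjamini-Hochberg adjusted p = 0.010), with the call lost without AML library 1 (adjusted p = 0.064), AML library 2 (adjusted p = 0.076) or normal library 2 (adjusted p = 0.0503). E2f1, a cell cycle factor, had 21.3 and 16.3 RPKM in AML libraries, against 5.75, 6.66 and 4.94 RPKM in normal libraries (1.54, adjusted p = 0.0046). Myc had 36.8 and 29.3 RPKM in AML libraries, against 2.48, 2.98 and 3.56 RPKM in normal libraries (3.09, adjusted p = 0.00039).

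**Figure D4:**
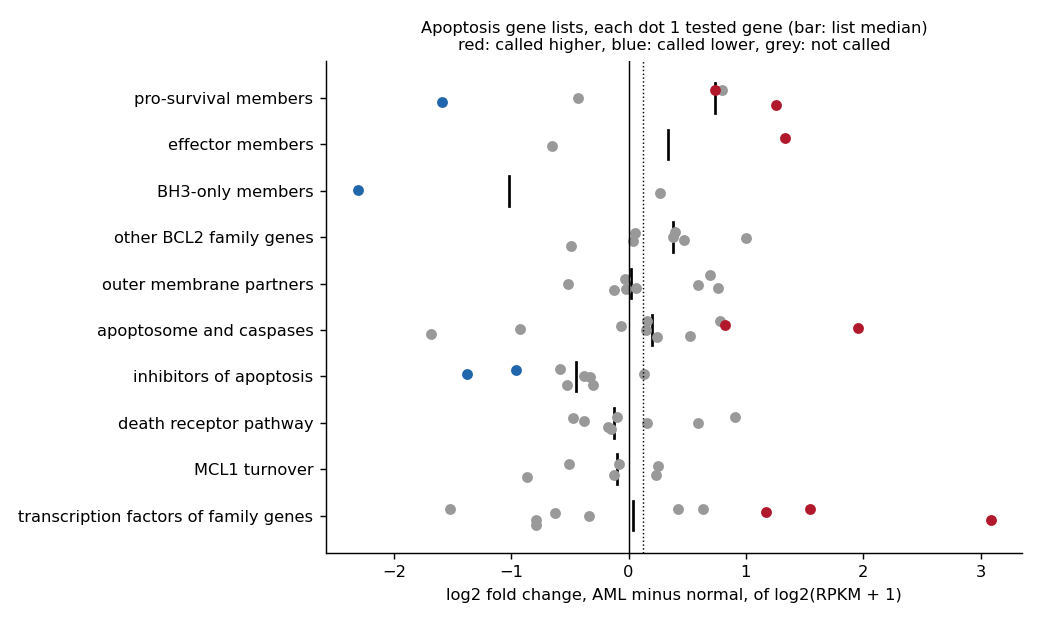
Log2 fold change (AML minus normal, log2(RPKM + 1) scale) of each tested gene of the 10 lists, 1 dot a gene, with the list median as a bar and the median of all tested genes, 0.12, as a dotted line. Called genes (red higher, blue lower) are scattered over the lists on both sides of 0, and most genes are grey.

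**Figure D5:**
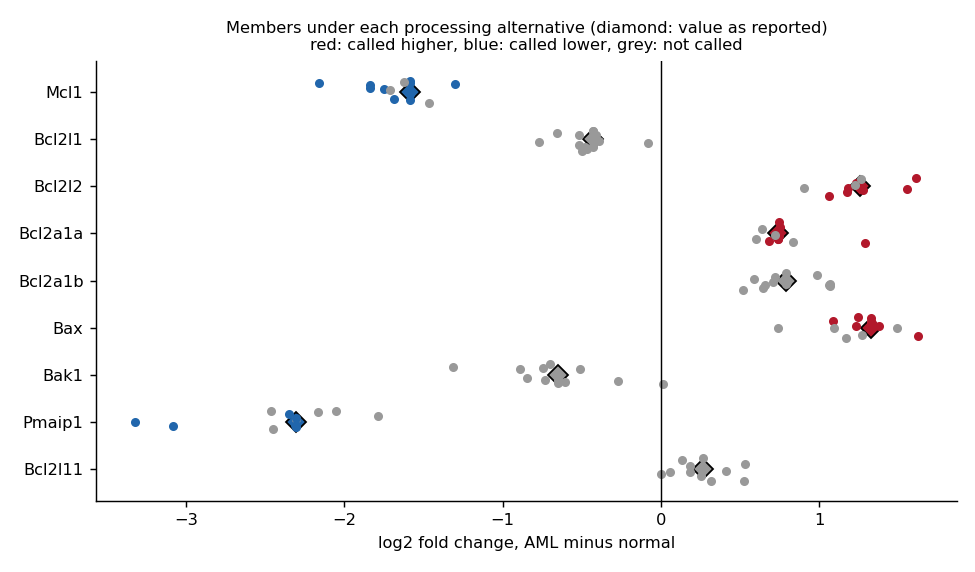
Log2 fold change (AML minus normal) of the 9 tested members as reported (diamond) and under each of the alternatives that tested them (dots); red and blue mark values called higher and lower, grey not called. Mcl1, Bcl2l1 and Pmaip1 stay below 0 and Bcl2l2, Bcl2a1a, Bcl2a1b, Bax and Bcl2l11 stay above 0 in all of them, while Bak1 reaches 0.011 without AML library 2.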

How the data were processed

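Total RNA of sorted cells was sequenced after TruSeq RNA library preparation, per the labels' protocols; whether counting used strand is unstated. The deposited RPKM values of 5 libraries were used as the authors made them. The unit is inferred: the values times exon length (24904 features) summed to 1059377 to 1124787 in each library. Per the submitters' processing notes the genome build was mm9; for aligner and counter, nothing is given in the sources used here. The read depth is not stated in the file and was only estimated. Genes reaching 1 RPKM in 2 or more libraries were compared as log2(RPKM + 1), a scale that understates changes of low genes, with limma 3.58.1 in R 4.3.3 (variance trend, robust, two-sided, Benjamini-Hochberg over all tested genes, threshold 0.05), tested on simulated data. Ratios of means are of RPKM. Exons came from GENCODE M1 and promoters from RefSeq; copies were aligned with Biopython 1.88. Of 133 list entries 132 were matched, 1 by synonym. The members and lists were chosen with earlier results of these data known. 1 gene is not reported here. Named were all members, all tested further family genes and, per pathway list, the 3 called genes with the largest change or, with none called, the gene of highest mean, and the 3 profiles nearest to Mcl1. Gsk3b, Foxo3 and Stat3 were named after their values were seen. Alternatives were 3 scalings, 2 filters, a pseudocount of 0.1, no variance trend, rounding to 1 decimal, and leaving out libraries.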

Additional observations from a re-analysis of the deposited data

How the results depend on the processing

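With library totals made equal without S100a8 and S100a9, the median log2 fold change of all tested genes moved to -0.11 against 0.12 as reported. Calls over all genes were then 1251 higher and 1369 lower, against 1959 higher and 1196 lower as reported, and the members' lower calls fell to 1. Members called higher were 1 with a filter at 5 RPKM, where 5 members were tested, and members called lower were 1 with no filter. Without both normal library 1 and normal library 2 there were 864 higher and 471 lower genes, with 0 members higher and 1 lower; normal library 3 is then assumed to vary like the AML libraries. Leaving out 1 library gave 326 to 2757 higher and 348 to 2142 lower genes, with 0 to 3 members higher and 0 to 2 lower. The mean share of Mcl1 in the pro-survival sum was 74.92% in AML cells and 91.5% in normal cells with Bcl2a1d added, against 74.96% in AML cells and 91.6% in normal cells as reported; leaving out 1 library is no check of it with so few libraries.

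Signs turned for genes that were not called. Bak1 ranged over -1.31 to 0.011 when 1 library was left out, with the positive value without AML library 2. Bad was -0.016 under upper quartile scaling, -0.12 with equal totals without S100a8 and S100a9, -0.020 to 0.17 when 1 library was left out (negative without normal library 2) and -0.18 without both normal libraries 1 and 2. Bcl2l13 was -0.053 under upper quartile scaling, -0.047 under quantile normalization, -0.19 with equal totals without S100a8 and S100a9, and -0.29 to 0.36 when 1 library was left out (-0.29 without AML library 1, -0.11 without normal library 3). Bcl2l15 was -0.079 without both normal libraries 1 and 2, and Gsk3a ranged over -0.23 to 0.032 when 1 library was left out, positive without normal library 3. Counts of other lists moved too, and so did those over all genes, with 2757 higher and 2142 lower of 10110 without normal library 3. The transcription factor list had 1 lower gene under each of the 3 scalings and 3 without normal library 3, against 0 as reported. The apoptosome and caspase list had 1 higher gene with equal totals, 1 lower under quantile normalization and 2 lower without normal library 3. Inhibitors of apoptosis had 3 lower genes with equal totals, 1 with no filter, 1 with a filter at 5 RPKM and 0 without both normal libraries 1 and 2. Other family genes had 1 higher gene with no filter (Bcl2l14) and 1 without normal library 3 (Bcl2l15). The cause was not tested. Without both normal libraries Bax was 0.74 (adjusted p = 0.31), Bcl2a1a 0.72 (adjusted p = 0.26) and Bcl2l2 1.23 (adjusted p = 0.061). Groups of 2 and 3 libraries and values of 1 or 2 decimals limit all of these.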
